A study of Arabidopsis thaliana with 12 samples.

Results

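*AtSN1* and *soloLTR* are a pair of short transposon remnants that serve as reporters of RNA-directed DNA methylation (RdDM) in *Arabidopsis*, and their 24-nt siRNAs were described here bin by bin in WT and 3 mutants. Their members are the 100-bp bins of the deposited small RNA table that overlap *AtSN1* (Chr3:15794544-15794785) or *soloLTR* (Chr5:9872429-9872874), each taken with 1000 bp on each side. This gave 10 of the 57094 bins of the table, 5 at each locus, and all 10 were among the 56658 bins analysed, those above 5 RPTM in at least 1 library. At *AtSN1*, 1 bin passed this filter through *pkl* alone (Chr3:15794501-15794600) and 1 through *nrpe1* alone (Chr3:15793801-15793900). A higher value of these bins in that mutant was favored by the filter, and is given here as a description only. RPTM is the number of 24-nt reads per 10000000 mapped reads of 18 to 30 nt. At *AtSN1*, 3 of the bins overlapped the element and 2 lay to its left, at 644 and 844 bp. At *soloLTR*, all 5 bins overlapped the element. From left to right, the element covers 57, 100, and 85 bp of its bins at *AtSN1* and 72, 100, 100, 100, and 74 bp at *soloLTR*. Element values are sums over whole bins and so include some sequence beside the element. The other 18 of the 23 possible bins at *AtSN1* and 20 of the 25 at *soloLTR* had no row and were not analysed here.

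The libraries came from whole 2-week-old seedlings, with 3 libraries of each of 4 genotypes: WT and the single mutants *pkl-1* (*pkl* here), *nrpd1-3* (*nrpd1*) and *nrpe1-11* (*nrpe1*). Each mutant is represented by 1 allele, all were grown on plates without further treatment, and the labels and the methods give different day lengths. The labels number the replicates but do not say that they were separate growths, so p-values measure the spread between these samples. Since whole seedlings were used, fewer cells with siRNA and less siRNA per cell cannot be told apart. Mapped reads ranged from 5598380 to 12390784 per library, so that 1 read was worth 0.807 to 1.79 RPTM.

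In RdDM, RNA polymerase IV (Pol IV) makes the precursors of 24-nt siRNAs, which are loaded on Argonaute proteins. The siRNAs pair with noncoding transcripts made at the target by RNA polymerase V (Pol V), and DNA methylation in all sequence contexts follows. The catalytic subunit of Pol IV is encoded by *NRPD1* and that of Pol V by *NRPE1*, while *PKL* encodes PICKLE, a chromatin remodeling factor of the CHD3 family. *AtSN1* belongs to a family of SINE retroelements, and *soloLTR* is a long terminal repeat without the rest of its retrotransposon. Both have long been used to assay siRNAs, DNA methylation, and silencing in mutants of this pathway. In the sequenced genotypes, the *nrpd1* and *nrpe1* libraries therefore give the levels without Pol IV and without Pol V at the same positions as *pkl*.

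Both elements are intergenic in the RefSeq annotation of TAIR10.1, whose nuclear sequence is that of TAIR10. *AtSN1* lies 5804 bp to the right of the pseudogene AT3G44000 and 631 bp to the left of the transcribed pseudogene AT3G44005. *soloLTR* lies 592 bp after the pseudogene AT5G27845 and 192 bp before AT5G27850, a protein-coding gene. The *AtSN1* interval is shown whole on its plus strand, because most of its siRNA fell into the bin that holds the stretch in capitals, the complement of the small RNA probe of the study (Chr3:15794743-15794785). Where in that bin the reads lay is not resolved by 100-bp values. The probe itself follows as synthesized, with its GGCC, the HaeIII recognition site, in capitals. For *soloLTR* only the repeated stretch is shown (Chr5:9872641-9872766, plus strand), since its siRNA peak and the bin with its lowest *pkl* fold change lie there, and the capitals mark an 18-bp unit that recurs exactly.
AtSN1 element: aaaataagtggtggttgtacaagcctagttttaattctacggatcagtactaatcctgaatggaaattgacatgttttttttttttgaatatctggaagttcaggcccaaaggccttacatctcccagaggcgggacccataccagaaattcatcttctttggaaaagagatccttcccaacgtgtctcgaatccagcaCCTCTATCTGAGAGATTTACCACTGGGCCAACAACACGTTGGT
AtSN1 siRNA probe: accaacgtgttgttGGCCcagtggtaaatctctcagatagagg
soloLTR repeats: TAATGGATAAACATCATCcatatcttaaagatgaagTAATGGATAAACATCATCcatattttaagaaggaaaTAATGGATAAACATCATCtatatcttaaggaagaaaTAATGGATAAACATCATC

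The elements differ in base composition. *AtSN1* is 242 bp long with a GC content of 42.1%, and *soloLTR* is 446 bp long with 28.0%, beside a median of 36% over the 55447 nuclear bins analysed. On both strands together, *AtSN1* holds 10 CG, 20 CHG, and 72 CHH sites, and *soloLTR* holds 8 CG, 8 CHG, and 109 CHH sites, CHH being the context (H is any base but G) in which methylation depends most on continued RdDM. GGCC, searched on both strands, is palindromic, occurs 3 times in *AtSN1* and was not found in *soloLTR*, and is present in 11.0% of the nuclear bins. The 18-bp unit of *soloLTR* occurs 4 times at a spacing of 36 bp, with 2 copies in Chr5:9872601-9872700 and 2 in Chr5:9872701-9872800. It is found on either strand in 11 of the 55447 nuclear bins, or 0.0198%.

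Repetition matters here because the study kept reads that mapped to 1 place. Of the 123 24-mers that touch each bin, 0, 6, and 7 occur more than once in the genome for the *AtSN1* element bins from left to right, and 0 for both flank bins. Repeats within an element are included in these counts. For *soloLTR* the numbers were 19, 61, 43, 24, and 5, so that a read from its second bin was the most likely to have a further match. Of the 55447 nuclear bins analysed, which are siRNA bins and not the whole genome, 73.3% hold at least 1 24-mer that is repeated in the genome.

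In WT, siRNA was concentrated in 1 bin of each element. At *AtSN1* this was Chr3:15794701-15794800, which holds the probe stretch and is called the probe bin here. It had 125 RPTM in WT replicate 1, 82.7 in replicate 2, and 85.1 in replicate 3, and its mean of 97.6 ± 23.8 RPTM (SD, n = 3) was above that of 96.3% of the analysed bins. The bin to its left, Chr3:15794601-15794700, had 24.2, 28.0, and 18.1 RPTM, and the left-edge bin, Chr3:15794501-15794600, had 4.84, 3.82, and 4.19 RPTM. The siRNA of WT thus fell from right to left across the element bins in each of the 3 libraries, though the element covers only 57 bp of the left-edge bin. The probe bin held 77.5 ± 4.70% of the reads of the element bins.

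At *soloLTR* the highest bin was Chr5:9872701-9872800, the fourth of 5 and one of the pair with the 18-bp unit, with 79.9, 94.1, and 92.1 RPTM in WT. Its mean of 88.7 ± 7.70 RPTM exceeded 95.7% of the analysed bins. The first bin from the left had 5.65, 6.36, and 2.79 RPTM, the second 19.4, 28.0, and 25.1 RPTM, the third 22.6, 31.8, and 36.3 RPTM, and the fifth 45.2, 31.8, and 19.5 RPTM. The fourth bin was the highest in each library, while the order of the third and the fifth differed between libraries. The peaks of both elements were thus of like height: 82.7 to 125 RPTM at *AtSN1* and 79.9 to 94.1 RPTM at *soloLTR*, overlapping between loci.

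**Figure D1:**
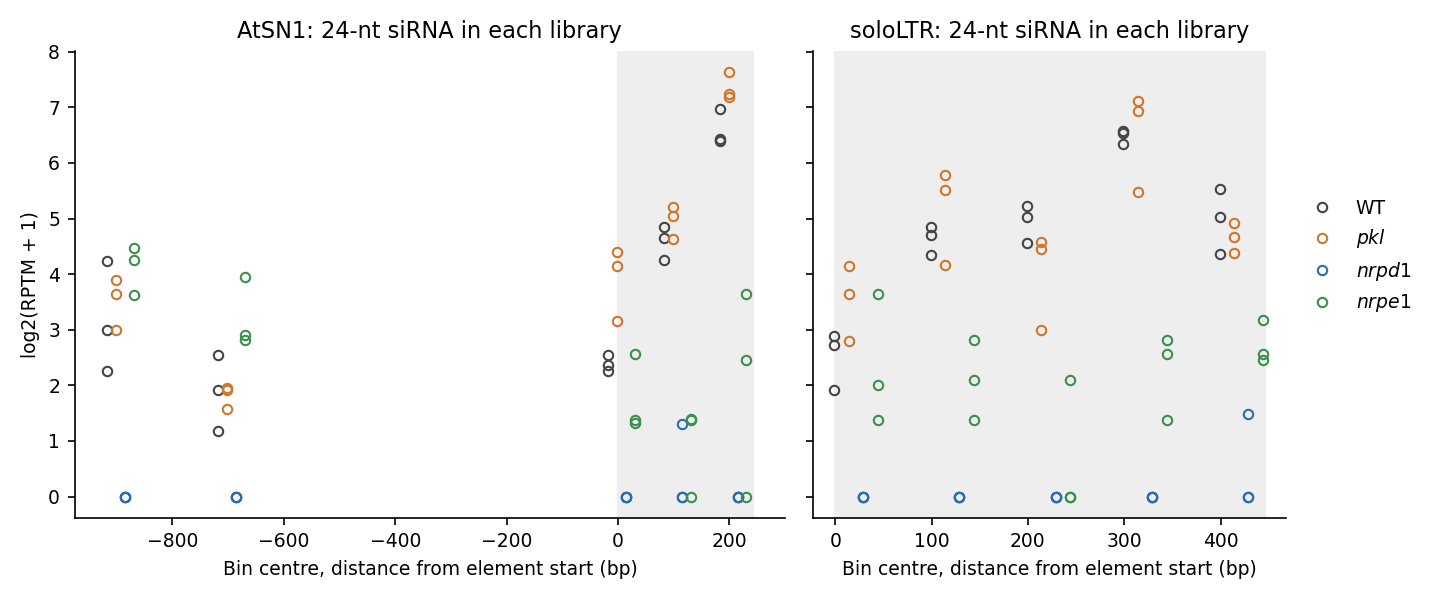
24-nt siRNA in each library as log2(RPTM + 1), by the distance of the bin centre from the left end of the element; genotypes are displaced sideways for clarity and grey marks the element. In *nrpd1* nearly every point is at 0, whereas the *nrpe1* points are low within the elements. In the pair of bins left of *AtSN1*, *nrpe1* overlaps WT in the farther bin. It lies above WT in the nearer bin, which passed the filter through *nrpe1* alone.

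Without Pol IV, both elements lost nearly all of their siRNA. Over the 3 element bins of *AtSN1*, the *nrpd1* libraries had 0, 1, and 0 reads, against 191, 90, and 77 reads in WT. Over the 5 bins of *soloLTR* they had 0, 0, and 1 read, against 214, 151, and 126 in WT. In summed RPTM, *AtSN1* went from 125 ± 25.2 in WT to 0.496 ± 0.858 and *soloLTR* from 180 ± 10.4 to 0.595 ± 1.03 (SD, n = 3 each). Against the value of 3 reads per library, averaged over the *nrpd1* libraries, *AtSN1* was at least 28.6-fold lower and *soloLTR* at least 41.1-fold lower. The groups did not overlap at either element (exact two-sided permutation test, p = 0.1 each, the smallest p that 3 libraries against 3 allow).

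Each of the 10 bins was called lower in *nrpd1* at an adjusted p under 0.01 by limma, and in each all *nrpd1* libraries lay below all WT libraries. Of all bins tested, 84.7% were called, 84.6% were called lower, and 86.5% had no overlap in that direction, so that the loss at these bins was that of most siRNA bins. The peaks lay among the strongest losses: the log2 fold change of (RPTM + 1) was -6.60 in the probe bin (95% CI -7.13 to -6.06, limma adjusted p = 3.01e-06) and -6.48 in the fourth *soloLTR* bin (95% CI -6.89 to -6.08, limma adjusted p = 2.97e-06). The median over all bins was -2.95, and 1.90% and 2.24% of bins had a lower value than these peaks. The size of a loss to 0 follows the WT level, and as bounds the peaks were at least 22.2-fold and 20.2-fold lower.

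At the left-most bins the loss was small in reads. In the pair of *AtSN1* flank bins together, WT had 28, 4, and 7 reads and *nrpd1* had 0 in each library, a level at least 2.84-fold lower. The call of the nearer flank bin (limma adjusted p = 0.00247) was lost when any *nrpd1* library or WT replicate 3 was left out, with limma adjusted p of up to 0.0156.

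Without Pol V, the elements lost most of their siRNA and kept a remainder. At *AtSN1* the *nrpe1* libraries had 3.22, 17.99, and 6.02 RPTM over the element, from 2, 11, and 4 reads, or 7.24 ± 6.26% of the WT mean, a 13.8-fold lower level. At *soloLTR* they had 12.9, 27.8, and 19.6 RPTM, from 8, 17, and 13 reads, or 11.1 ± 4.14% of WT, 8.98-fold lower. Other scalings of the libraries left more, from 11.8% to 18.2% of WT at *AtSN1* and from 18.3% to 28.2% at *soloLTR*. All *nrpe1* libraries lay below all WT libraries and above all *nrpd1* libraries at both elements (exact two-sided permutation tests, p = 0.1 each). The remainder thus rests on 17 reads at *AtSN1* and 38 at *soloLTR* over 3 libraries, of which *nrpe1* replicate 2 held the most at each element. Without that replicate, the level at *AtSN1* would be 3.68% of WT and at *soloLTR* 9.0%.

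**Figure D2:**
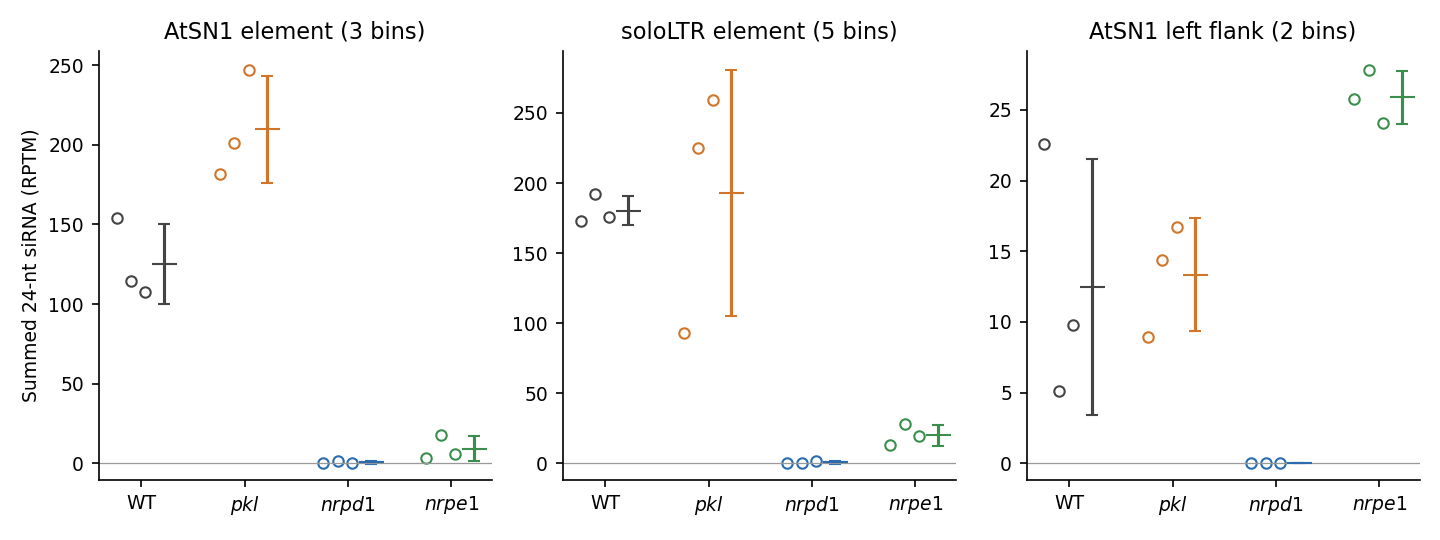
Summed RPTM of the element bins of *AtSN1* and *soloLTR* and of the flank bins left of *AtSN1*, with 1 circle per library and the mean ± SD of the 3 libraries beside them; the panels have different scales. The *nrpe1* sums are 7.24% and 11.1% of WT at the elements but 207% in the *AtSN1* flank, of which 1 bin passed the filter through *nrpe1* alone.

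The probe bin of *AtSN1* had 0, 11.4, and 4.51 RPTM in *nrpe1*, and the bin to its left had 1.61, 1.64, and 0 RPTM. Both were called lower (log2 fold changes -4.56, 95% CI -6.43 to -2.70, and -3.66, 95% CI -4.79 to -2.53; limma adjusted p = 0.00217 and 0.000500). The fourth bin of *soloLTR* had 1.61, 4.91, and 6.02 RPTM, a log2 fold change of -4.23 (95% CI -5.15 to -3.31, limma adjusted p = 0.000108). The third bin, which shares the 18-bp unit with it, had 0, 3.27, and 0 RPTM and a log2 fold change of -4.24 (95% CI -5.66 to -2.83, limma adjusted p = 0.000746).

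In all, *nrpe1* had 2 bins called lower at *AtSN1* and 4 at *soloLTR*, each of 5, where 30.4% of all bins tested were called and 29.4% were called lower. By overlap, 2 bins at *AtSN1* and 4 at *soloLTR* lay below all WT libraries, beside 41.7% of all bins. The left outer bins of the elements were the exceptions: the left-edge bin of *AtSN1* had 1.61, 4.91, and 1.504 RPTM and the first bin of *soloLTR* 1.61, 11.4, and 3.01 RPTM, both overlapping WT (log2 fold changes -0.64, 95% CI -1.73 to 0.46, and -0.17, 95% CI -1.63 to 1.29; limma adjusted p = 0.342 and 0.865). In WT these bins had only 2 to 7 reads per library. Leaving out any 1 WT library ended the call of the probe bin, with limma adjusted p of 0.0234 to 0.0295, and left 2, 1, and 2 called bins at *soloLTR* without WT replicates 1, 2, and 3.

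Set directly against *nrpd1*, *nrpe1* was called higher in 2 bins at *soloLTR*, the second and the fourth (log2 differences 2.10 and 2.25, 95% CI 1.06 to 3.14 and 1.15 to 3.36; limma adjusted p = 0.00866 and 0.00831), beside 43.3% of all bins called, 43.2% higher and 0.0653% lower. Neither call was made with replicate number as a block or without *nrpd1* replicate 1 or 2, and 1 of them was made without *nrpd1* replicate 3 or *nrpe1* replicate 2 or 3. At *AtSN1* the 2 called bins were those of the flank. Of these, Chr3:15793801-15793900 had passed the filter through *nrpe1* alone, so its call was favored by the filter. In the probe bin the log2 difference of 2.03 did not pass (95% CI -0.49 to 4.56, limma adjusted p = 0.142).

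The bins left of *AtSN1* did not follow the element in *nrpe1*. Chr3:15793601-15793700 had 17.8, 3.82, and 6.98 RPTM in WT. It had 6.94, 11.5, and 13.9 RPTM in *pkl*, 11.3, 21.3, and 18.05 in *nrpe1*, and 0 in each *nrpd1* library. Chr3:15793801-15793900 had 4.84, 1.27, and 2.79 RPTM in WT. It had 1.98, 2.87, and 2.79 RPTM in *pkl*, 14.5, 6.54, and 6.02 in *nrpe1*, and 0 in each *nrpd1* library. In the first of these bins *nrpe1* and WT overlapped. In the second all *nrpe1* libraries lay above all WT libraries, as in 7.45% of all bins tested, but this is the bin that passed the filter through *nrpe1* alone, and nothing is read from it.

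Summed, the flank had 25.9 ± 1.87 RPTM in *nrpe1* and 12.5 ± 9.06 in WT, a description that includes the bin selected through *nrpe1*. In the first bin the log2 fold change of 0.95 did not pass the test (95% CI -0.26 to 2.16, limma adjusted p = 0.200). It was called higher, at 2.15 (limma adjusted p = 0.00858), when libraries were scaled to equal nuclear 24-nt totals outside the rDNA. That scaling was chosen after seeing the data. With quantile normalization the first bin was also called higher, at 2.12 (limma adjusted p = 0.00369). With equal 24-nt totals it was not called (1.59, limma adjusted p = 0.0363). Nor was it called by edgeR with TMM factors (adjusted p = 0.0599) or by DESeq2 (adjusted p = 0.259). Against *nrpd1* both bins were called higher, with log2 differences of 4.12 and 3.23 (limma adjusted p = 0.000214 and 0.00121). With replicate number as a block, the first was called (limma adjusted p = 0.00736) and the second, selected through *nrpe1*, was not (limma adjusted p = 0.0122).

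The proportions within the window show the contrast without any scaling between libraries. The flank bins held 28 of 219, 4 of 94, and 7 of 84 window reads in WT, or 8.46 ± 4.27%, and 5.90 ± 1.06% in *pkl*. In *nrpe1* they held 16 of 18, 17 of 28, and 16 of 20 window reads, or 76.5 ± 14.4%. Without both bins that had passed the filter through 1 mutant alone, the remaining flank bin held 22 of 207, 3 of 90, and 5 of 79 reads in WT, or 6.76 ± 3.67%. In *nrpe1* it then held 7 of 8, 13 of 21, and 12 of 15 reads, or 76.5 ± 13.2%, and the lowest *nrpe1* share, 61.9%, was above the highest WT share, 10.6%. These shares were chosen after their values had been seen and were not tested.

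In *pkl*, the mean siRNA level of *AtSN1* was above WT, while that of *soloLTR* lay within the spread of the libraries. Over the *AtSN1* element, *pkl* had 181, 201, and 247 RPTM, against 154, 114, and 107 in WT. The mean of 210 ± 33.6 RPTM was 167% of WT, and all *pkl* libraries lay above all WT libraries (exact two-sided permutation test, p = 0.1). Without the left-edge bin, which passed the filter through *pkl* alone, the level was 161% of WT, with 173, 181, and 230.1 RPTM in *pkl* and 149, 111, and 103 in WT. Over *soloLTR*, *pkl* had 93.2, 225, and 259 RPTM, against 173, 192, and 176 in WT, so that WT lay between *pkl* replicate 1 and the other *pkl* libraries. The *soloLTR* mean was 193 ± 87.8 RPTM, 107% of WT (exact two-sided permutation test, p = 0.9), and it was 134% without *pkl* replicate 1. With any 1 library left out, it ranged from 88.4% to 134% at *soloLTR* and from 152% to 189% at *AtSN1*.

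The *pkl* libraries rose in the same order at both elements, and their spread was wider at *soloLTR*. The SD was 48.7% of the WT mean at *soloLTR* and 26.8% at *AtSN1*. In *pkl* replicate 1, *soloLTR* had 51.7% of the WT mean and *AtSN1* 145%, and in *pkl* replicates 2 and 3 the pair stood at 125% and 160% and at 144% and 197%. The *AtSN1* values, also in the ratio below, include the left-edge bin, which passed the filter through *pkl* alone. The ratio was not formed without that bin. As a log2 ratio of *soloLTR* to *AtSN1* within a library, with 5 RPTM added to each, the values were -0.92, 0.16, and 0.07 in *pkl* and 0.16, 0.72, and 0.69 in WT. The difference of -0.75 was not distinguishable from the spread between libraries (exact two-sided permutation test, p = 0.2). For *nrpe1* it was 0.41 (p = 0.3 by the same exact test), and for *nrpd1*, with at most 1 read per element and library, the ratio is set by the RPTM added and was not read.

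No bin at either locus was called in *pkl* against WT, where 10.2% of all bins were called, 8.2% lower and 1.98% higher, and the median log2 fold change was -0.31. At an unadjusted limma p under 0.05 there were 2 bins at *AtSN1* and 0 at *soloLTR*. These 2 bins were also those in which all *pkl* libraries lay above all WT libraries, as in 9.35% of all bins, but 1 of them is the left-edge bin. The left-edge bin had 7.93, 20.1, and 16.7 RPTM in *pkl*, 3.48-fold higher than WT in the mean, with a log2 fold change of 1.51 (95% CI 0.45 to 2.56, limma adjusted p = 0.0410), values favored by the filter. The probe bin had 150, 145, and 198 RPTM, 1.68-fold higher, with a log2 fold change of 0.76 (95% CI 0.04 to 1.47, limma adjusted p = 0.143), above 85.1% of bins. The bin between them had 23.8, 35.9, and 32.1 RPTM and overlapped WT (log2 fold change 0.37, 95% CI -0.48 to 1.22, limma adjusted p = 0.587).

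**Figure D3:**
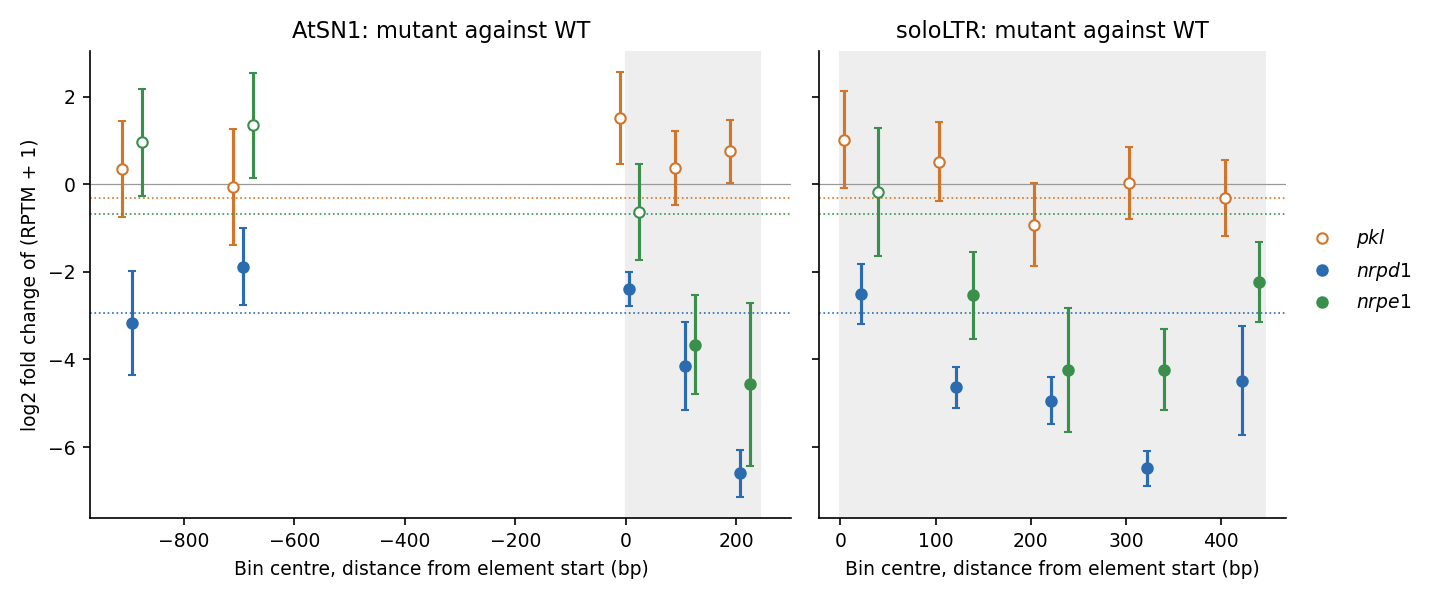
Log2 fold change of (RPTM + 1) against WT for each bin with its 95% confidence interval from limma, by distance from the left end of the element; filled circles were called at an adjusted p under 0.01, open circles were not, and dotted lines mark the median of all bins for each mutant. All *pkl* points are open, from -0.93 to 1.51.

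The *pkl* calls at *AtSN1* differed between settings. RPTM divides by all mapped reads, and the 24-nt sums of the *pkl* libraries over the table were 1105512 to 1544575 RPTM against 1575721 to 1623711 in WT. The probe bin was called higher by edgeR's quasi-likelihood test on the recovered reads with TMM factors (adjusted p = 0.00168) and by DESeq2 (adjusted p = 0.00293), whereas edgeR with the library sizes of the authors called 0 of the 5 bins. The left-edge bin was called with equal 24-nt totals, with edgeR and TMM, and without *pkl* replicate 1 (adjusted p = 0.00760, 0.00186, and 0.00846), from which nothing is read because of its selection. With equal 24-nt totals, 66.3% of all called bins were lower, in place of 80.5%. At *soloLTR* 0 bins were called in *pkl* under any of these settings.

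At *soloLTR*, *pkl* had 5.95, 11.5, and 16.7 RPTM in the first bin, 16.9, 44.5, and 54.4 in the second, 6.94, 23.0, and 20.9 in the third, 43.6, 122, and 138 in the fourth, and 19.8, 24.4, and 29.3 in the fifth. Each bin overlapped WT. The peak bin had a log2 fold change of 0.03 (95% CI -0.79 to 0.85, limma adjusted p = 0.973), an interval that includes the 0.76 of the *AtSN1* probe bin. The third bin had the lowest value, -0.93 (95% CI -1.88 to 0.02, limma adjusted p = 0.174), and the first bin the highest, 1.02 (95% CI -0.08 to 2.12, limma adjusted p = 0.204).

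The third bin also stood out in the proportions within *soloLTR*, which do not depend on the scaling. It held 16.8 ± 3.78% of the element's reads in WT and 8.57 ± 1.44% in *pkl*, and all *pkl* libraries, at 7.45, 10.2, and 8.06%, lay below those of WT, at 13.1, 16.6, and 20.6%. The mean shares of the first and second bins, to its left, were higher in *pkl*: 5.98 ± 0.764% against 2.72 ± 0.984%, and 19.6 ± 1.45% against 13.4 ± 1.86%, again without overlap. The fourth bin, which holds the other copies of the 18-bp unit, held 51.4 ± 3.995% in *pkl* and 49.2 ± 3.07% in WT, with overlap. At *AtSN1* the left-edge bin held 7.05 ± 2.82% in *pkl* and 3.46 ± 0.392% in WT without overlap, a difference favored by the filter, and the shares of the other bins overlapped. Of these 8 shares 4 did not overlap, with exact two-sided permutation p = 0.1 each and 0.2 after Benjamini-Hochberg adjustment over the 8. As 3 libraries against 3 allow no p under 0.1, none could pass, and the test decides nothing here. The shares of an element add up to the whole, so a lower share in 1 bin raises others, and the 4 are not separate results.

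**Figure D4:**
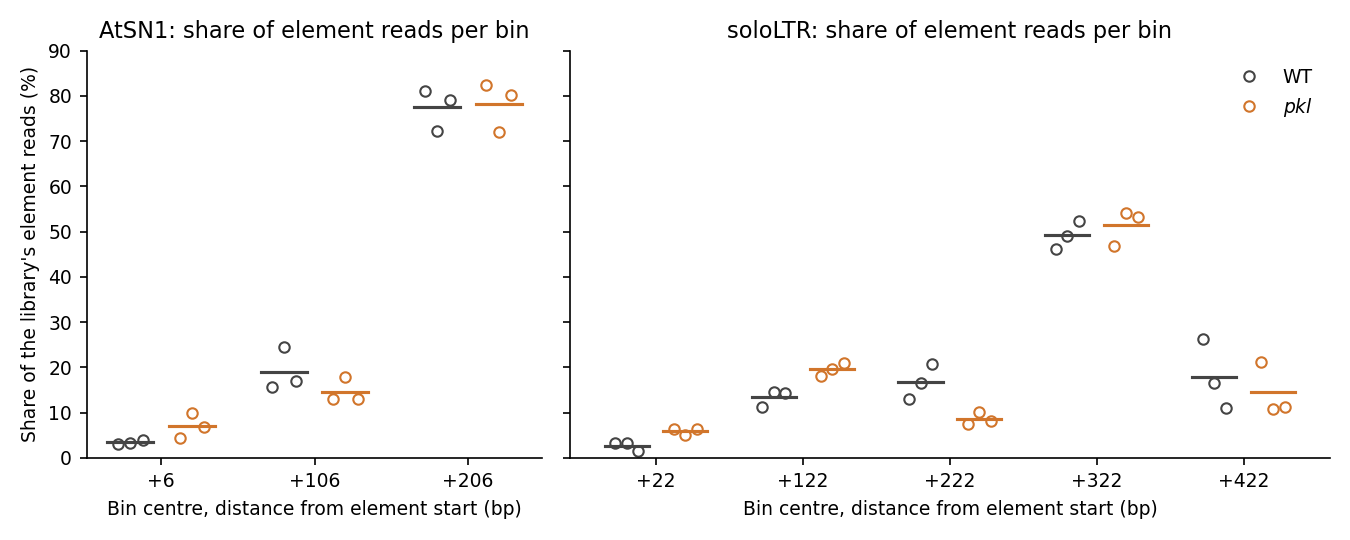
Share of the reads of each element that fell into each bin, in percent, with 1 circle per library and a line at the mean, for WT and *pkl*; the x axis gives the bin centre from the left end of the element. In *soloLTR* the *pkl* circles of the third bin lie below those of WT (means 8.57% and 16.8%), those of the bins on its left lie above, and those of the fourth overlap (means 51.4% and 49.2%).

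Directly against *nrpe1*, *pkl* was called higher in 2 bins at *AtSN1* and 4 at *soloLTR*, beside 18.9% of all bins called, 18% higher and 0.973% lower. The probe bin differed by 5.32 on the log2 scale (95% CI 3.61 to 7.03, limma adjusted p = 0.000874) and the fourth *soloLTR* bin by 4.26 (95% CI 3.04 to 5.48, limma adjusted p = 0.000507). At the element level all *pkl* libraries lay above all *nrpe1* libraries at both loci (exact two-sided permutation tests, p = 0.1 each). With 1 library left out, the called bins ranged from 0 to 2 at *AtSN1* and from 1 to 2 at *soloLTR*; *AtSN1* had 1 without *pkl* replicate 1 or 3 and 0 without *pkl* replicate 2, and *soloLTR* had 1 without *pkl* replicate 2 or 3 and 2 without any other library.

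Both elements have relatives elsewhere in the genome, whose siRNA was measured in the same way. Matches of at least 80% identity over at least 100 bp were searched in the reference outside the windows. *AtSN1* had 17 such copies, of 80 to 87.1% identity, all with analysed bins (31 in all), and *soloLTR* had 8, of 80.2 to 90.4% identity, of which 7 had analysed bins (22 in all). Mean siRNA per copy in WT ranged from 3.83 to 208 RPTM for *AtSN1*, with a median of 97.2. For *soloLTR* it ranged from 6.29 to 99.2 RPTM. These are sums over 1 or 2 bins for *AtSN1* and 2 to 4 bins for *soloLTR*, fewer than at the reporters, so their levels are not compared with those of the reporters. The WT mean was above 5 RPTM in 28 of the 31 bins for *AtSN1* and 19 of the 22 for *soloLTR*. Whether the remaining bins passed the filter through a mutant alone was not examined.

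In *nrpd1* all copies lay below WT, at 0 to 3.06% of WT for *AtSN1* and 0 to 3.51% for *soloLTR*, like the reporters, and 29 of the 31 and 21 of the 22 bins were called lower and 0 higher, beside 84.6% and 0.141% of all bins. In *nrpe1* the families differed in their values. For *AtSN1*, 26 of the 31 bins were called lower and 0 higher, beside 29.4% and 1.02% of all bins, with a median log2 fold change of -4.16 beside -0.68 over all bins, and the median copy was at 1.68% of WT. By overlap, 15 of the 17 copies lay below all WT libraries, beside 41.7% of all single bins. The 2 copies that overlapped WT were on chromosome 1 (Chr1:11960859-11961030), at 93.1% of WT, and chromosome 2 (Chr2:3517281-3517448), at 204% of a WT mean of 3.83 RPTM. For *soloLTR*, 6 of the 22 bins were called lower and 1 higher, beside the same shares of all bins, with a median of -1.05, and the median copy was at 53.4% of WT. The copies of *soloLTR* thus kept from 6.81% to 189% of WT in *nrpe1*, and the reporter itself, at 11.1%, stood near the low end of its family.

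In *pkl* the copies scattered around WT. The median copy was at 94.7% of WT for *AtSN1* (25.4% to 219%) and at 107% for *soloLTR* (69.8% to 176%). Of the *AtSN1* copies 4 lay below all WT libraries and 1 above, and of the *soloLTR* copies 0 lay below and 1 above. Of all single bins, 24.5% lay below and 9.35% above, a measure unlike that of the copies, which are sums over their bins. Of the bins, 3 were called lower and 2 higher for *AtSN1* and 0 lower and 1 higher for *soloLTR*, beside 8.2% lower and 1.98% higher of all bins. The *AtSN1* reporter was at 167% of WT, or at 161% without the left-edge bin, which passed the filter through *pkl* alone. With either value it was exceeded by 1 of its 17 copies, the one at Chr3:16395701-16395869 with 219%.

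**Figure D5:**
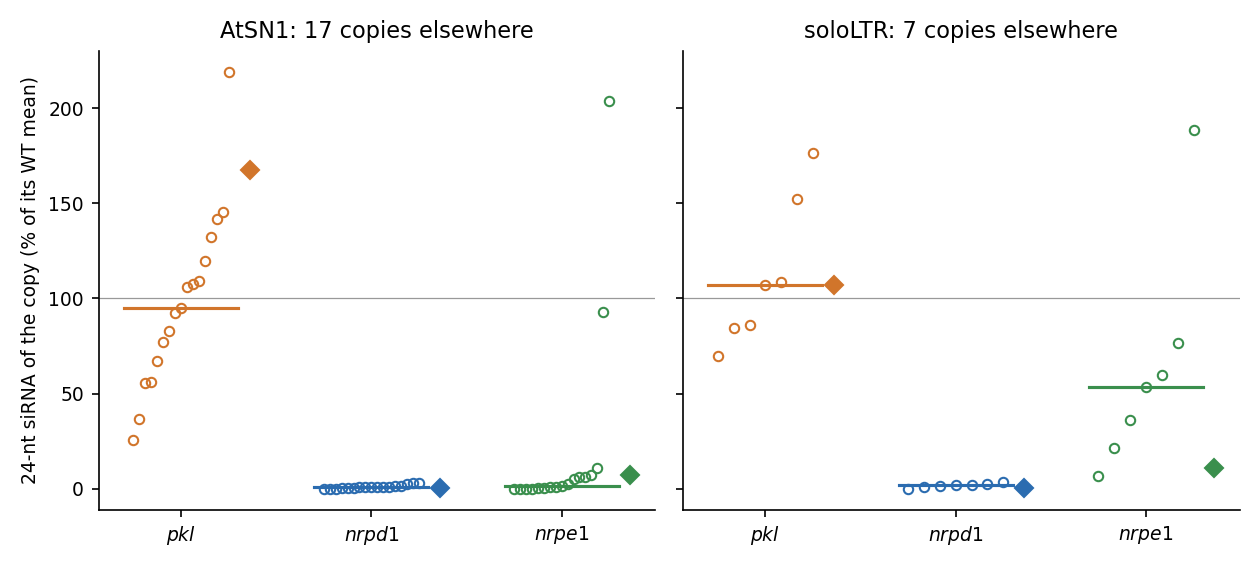
24-nt siRNA of each genomic copy in percent of its WT mean, with 1 circle per copy in ascending order, a line at the median of the copies, and a diamond for the reporter element itself. In *nrpe1* 15 of the 17 *AtSN1* copies lay below all WT libraries, beside 41.7% of all single bins, whereas the *soloLTR* copies spread from 6.81% to 189%. Overlap with the WT libraries was counted on sums over the bins of a copy and is not drawn. The *AtSN1* diamonds include the left-edge bin, which passed the filter through *pkl* alone.

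The bins with the profiles closest to the peaks of both elements were also intergenic, in that no annotated gene or pseudogene overlapped them. The share of such bins among all analysed bins was not counted, so nothing is read from this. Similarity was measured as a Euclidean distance between bins, on log2(RPTM + 1) in the 12 libraries. The nuclear bin most like the probe bin was Chr5:9877701-9877800 at a distance of 1.71, whose group means were 114 RPTM (WT), 179 RPTM (*pkl*), 0 RPTM (*nrpd1*), and 2.09 RPTM (*nrpe1*). It lies 4827 bp to the right of *soloLTR*. Chr2:2362801-2362900 and Chr2:1715801-1715900 followed, at 1.95 and 1.98. For the peak bin of *soloLTR* the closest were Chr1:10696701-10696800 at 0.953, with means of 86.3, 86.6, 0, and 4.71 RPTM in the same order of genotypes, then Chr2:7861101-7861200 at 1.15 and Chr4:9794401-9794500 at 1.19.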

How the data were processed

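Small RNA of 18 to 30 nt was sequenced from seedlings of 4 genotypes, 3 libraries each. After trimming (quality minimum 30) and removal of structural RNAs, the authors mapped reads to TAIR10, kept unique mappers, and took coverage by 24-nt reads of each 100-bp bin with bedtools, so that 1 read can count in adjoining bins. Per the labels' processing notes, CASAVA 1.8, Trim Galore 0.4.0, and BWA 0.7.15 were used. The deposited values are a signal per bin, scaled by the authors to reads per 10000000 mapped reads (RPTM). A fall of 24-nt reads in a library therefore raises all of its other values. Whole reads were recovered from the steps of the values (100% whole within 0.01).

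The study used edgeR. Because the deposited values are normalized, limma 3.58.1 (lmFit, eBayes with trend, R 4.3.3) was fitted here to log2(RPTM + 1) of the 56658 bins above 5 RPTM in at least 1 of 12 libraries, for each of 5 pairs of genotypes. Tests were two-sided with Benjamini-Hochberg adjustment over all these bins, and bins at an adjusted p under 0.01 were called. The comparisons of each mutant with WT share the WT libraries. Fold changes on this scale understate changes of low bins. Values per library were compared by exact permutation tests (SciPy 1.17.1). Where a group had at most 3 reads per library, folds are bounds against the value of 3 reads (2.42 to 5.36 RPTM), which cover counting error only. Copies were found with BLAST 2.17.0. The fit was tested on simulated data. Bins named are those of the loci, of their copies, and the 3 most similar to each peak. Values in every library are given for element bins, and for flank bins called in at least 1 mutant.

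The loci, lists, and rules were chosen with earlier results of these data known, and shares within elements and within the *AtSN1* window were formed after values had been seen. Alternatives were other pseudocounts (0.1 and 5), filters, scalings, a joint fit, a replicate block, a threshold of 0.05, narrower windows, edgeR 4.0.16, DESeq2 1.42.0, and leaving out each library.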

Additional observations from a re-analysis of the deposited data

How the results depend on the processing

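Of 303 alternative values of counts, element levels, and ratios, 232 stayed within the limits set for them and 71 moved. Of 564 alternative fold changes of single bins, 493 kept their direction and call, 14 gained and 32 lost the call, and 25 changed sign. The causes of these shifts were not tested, apart from windows of 500 bp or the element alone and a filter of 10 RPTM in at least 3 libraries, which hold fewer bins.

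For *pkl* against WT at *AtSN1*, the 0 called bins became 1 with equal 24-nt totals, 1 at an adjusted p under 0.05, 1 with DESeq2, and 2 with quantile normalization, with edgeR and TMM, and with equal nuclear 24-nt totals outside the rDNA. The last scaling was chosen after seeing the data. The left-edge bin, which passed the filter through *pkl* alone, is among the called bins in each of these but DESeq2. For *nrpd1* against WT, the 5 called bins at *AtSN1* became 3 with the stricter filter, in narrower windows of either kind, with edgeR and TMM, and with DESeq2, and 1 with quantile normalization, which gave 3 at *soloLTR*. For *nrpe1* against WT, the 2 bins called lower at *AtSN1* became 0 with a pseudocount of 0.1. With quantile normalization 4 were called, of which 2 were lower. The other 2 were the flank bins, called higher, of which 1 was selected through *nrpe1*. The 4 called lower at *soloLTR* became 2 with equal nuclear totals. For *nrpe1* against *nrpd1*, the 2 called at *AtSN1* were the flank bins, of which 1 was selected through *nrpe1*. The count became 1 with the stricter filter and with quantile normalization, 4 in the joint fit, and 0 in narrower windows. The 2 at *soloLTR* became 0 with a pseudocount of 5, with quantile normalization, and with DESeq2, 1 with edgeR and TMM, and 4 in the joint fit and at an adjusted p under 0.05. For *pkl* against *nrpe1*, the 2 bins called higher at *AtSN1* became 0 with a pseudocount of 0.1. The count was 4 with quantile normalization, 2 of them lower, and 4 with edgeR and TMM, 1 of them lower. The 4 called higher at *soloLTR* became 2 with a pseudocount of 0.1 and with either scaling to equal totals.

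With 1 library left out, called bins ranged from 0 to 1 at *AtSN1* in *pkl* against WT (1 without *pkl* replicate 1), from 1 to 2 at *AtSN1* and 1 to 4 at *soloLTR* in *nrpe1* against WT, from 0 to 2 at *soloLTR* in *nrpe1* against *nrpd1*, and from 0 to 2 at *AtSN1* and 1 to 2 at *soloLTR* in *pkl* against *nrpe1*.

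The *AtSN1* element level in *pkl* was 200.1% of WT with equal 24-nt totals, 237% with equal nuclear totals, and 260.1% with quantile normalization. These levels include the left-edge bin, which passed the filter through *pkl* alone, and were not formed without it. For *nrpd1* the equal nuclear totals gave 4.24% and quantile normalization 23.5% at *AtSN1*, and 4.67% and 29.1% at *soloLTR*. For *nrpe1* they gave 17.8% and 18.2% at *AtSN1*, where all bins of the window gave 25.4%, and 28.2% and 25.9% at *soloLTR*, where equal 24-nt totals gave 18.3%. The log2 ratio of *soloLTR* to *AtSN1* in *nrpe1* against WT was 0.0050 with 20 RPTM added and -1.09 over all bins of the window. The *AtSN1* window, used for the 25.4% and the -1.09, includes the flank bin that passed the filter through *nrpe1* alone.

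Changes of sign were as follows. In *pkl*, Chr3:15793601-15793700 ranged from -0.10 to 0.88 with 1 library left out, Chr5:9872701-9872800 from -0.27 to 0.55, and Chr3:15793801-15793900 from -0.42 to 0.26, and the last was 0.11 with equal 24-nt totals, 0.23 with equal nuclear totals, 0.15 with quantile normalization, and 0.0402 with DESeq2. Chr5:9872801-9872900 was 0.15 with equal nuclear totals and 0.10 with quantile normalization. In *nrpd1*, quantile normalization gave 1.04 for Chr3:15793801-15793900, 0.60 for Chr3:15794501-15794600, and 0.51 for Chr5:9872401-9872500. In *nrpe1*, Chr3:15794501-15794600 was 0.37 with equal nuclear totals and 0.51 with quantile normalization. Chr5:9872401-9872500 in *nrpe1* was 0.40 with equal 24-nt totals, 0.88 with equal nuclear totals, 0.96 with quantile normalization, 0.0531 and 0.37 with edgeR at the library sizes of the authors and with TMM, and 0.28 with DESeq2, and it ranged from -0.82 to 0.31 with 1 library left out.

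Same-numbered libraries of different genotypes correlated at -0.0386 to 0.168 in their deviations from the group means, above 0.1 in 2 of 18 pairs, and a library correlated best with its own number in 26 of 36 cases, which is a hint from the data and not the design, so they were treated as unpaired. With replicate number as a block, called bins in *nrpe1* against *nrpd1* fell from 2 to 1 at *AtSN1* and from 2 to 0 at *soloLTR*. The *AtSN1* element level in *pkl*, with the left-edge bin selected through *pkl* included, was then 174% of WT. The other counts of calls stayed within 1.5 times.

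Depth limits what low bins can show: 3 reads were worth 2.42 to 5.36 RPTM, the left-edge bins had 2 to 7 reads per WT library, and 38 *nrpe1* reads carry the *soloLTR* remainder. The 3 libraries per genotype cannot reach a permutation p under 0.1.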
